A study of Mus musculus with 2 samples.

Results

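The sarcomeric muscle genes followed here are Myog, Myh3, Myh7, Myl4, Mylpf, Acta1, Actc1, Tnnt2, Tnni1 and Tnnc1, which were read in cultured embryonic mouse ureters by 12 probes. Every probe on the array that carries one of these 10 gene names was taken, and 11 of the 12 probes, covering all 10 genes, passed the filter on dim signals, of 29645 probes that passed among 39429 and of 22316 genes or unnamed features measured. The set was chosen by the log2 ratios between the conditions measured on these arrays, because Myh3, Tnnt2 and Myog differed strongly, so the genes' differences between conditions are given as a description without a test. Wild-type ureters of the outbred NMRI strain, from embryos of both sexes at E13.75 (days after conception), were dissected and kept on transwell membranes for 18 h, with NOGGIN in the medium at 10 µg/ml or without it. NOGGIN is an extracellular antagonist that captures bone morphogenetic proteins (BMPs) before they reach a receptor. All 4 samples were cultured, and no uncultured ureter was compared. Each of 2 two-colour arrays held 1 control and 1 NOGGIN sample, with the dyes exchanged between the arrays. The labels do not say whether the samples came from separate litters, so the spread between the 2 arrays may be partly technical.

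The sarcomere is the contractile unit of striated muscle: myosin thick filaments pull on actin thin filaments, and calcium bound by the troponin complex on the thin filament switches that pull on. Skeletal and heart muscle build sarcomeres, while the muscle coat of the ureter is smooth muscle, which contracts with its own actins and myosin and has neither sarcomeres nor a troponin switch. Myogenin, the product of Myog, is a basic helix-loop-helix transcription factor that drives skeletal muscle precursors to differentiate, together with its relatives MyoD, Myf5 and MRF4.

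Signed values are log2 ratios with the channel labelled NOGGIN as numerator and the one labelled control as denominator, and levels are normalized log2 intensities of single probes, which say nothing about one gene against another. The direction of the labels is not settled. Id1, a transcript that BMP signalling raises, had ratios of 2.21 on array 1 and 2.08 on array 2, higher in the channel labelled NOGGIN (limma adjusted p = 0.0735). Of 11 BMP target genes listed for this check, Id1 included, all 11 were higher in that channel on both arrays, 9 of them by at least 1.5-fold on each, with a median of 1.31. For Id1 the authors' deposited table has signed fold changes of -4.65 and -4.53, and by the dye labels that table is control over NOGGIN although the sample titles set NOGGIN against control. Were the dyes assigned the other way round, all signs below would turn without a change in size. NOGGIN and control samples are therefore the samples so labelled, and no sign below is read as an effect of NOGGIN. In limma's test over both arrays 0 of 22316 features (0%) had an adjusted p under 0.05, 1347 features (6.04%) had an unadjusted p under 0.05, and 141 features passed with limma's trend and robust options. Differences are therefore read by a fold rule that asks for 1.5-fold or more on each array with the same sign.

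By that rule 3 of the 10 genes, Myh3, Tnnt2 and Myog, were lower in the channel labelled NOGGIN, 0 were higher and 7 were neither. Of all features, 1.25% were lower and 0.941% were higher by the same rule. These 3 are the genes the set was picked for, so nothing is read from their share. Irrespective of size, 7 genes were lower on both arrays (23.3% of all features were), 2 were higher on both (20.4%), and Tnni1 had opposite signs. The median log2 ratio of the 10 genes was -0.77, beside -0.01 over all features, with values of -0.39 and -0.91 on the single arrays. Counted on array 1 by itself, 4 genes were at least 1.5-fold lower (2.11% of all features), and 6 were on array 2 by itself (5.64%). In these bulk samples, fewer cells of a type and less RNA per cell cannot be told apart.

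**Figure D1:**
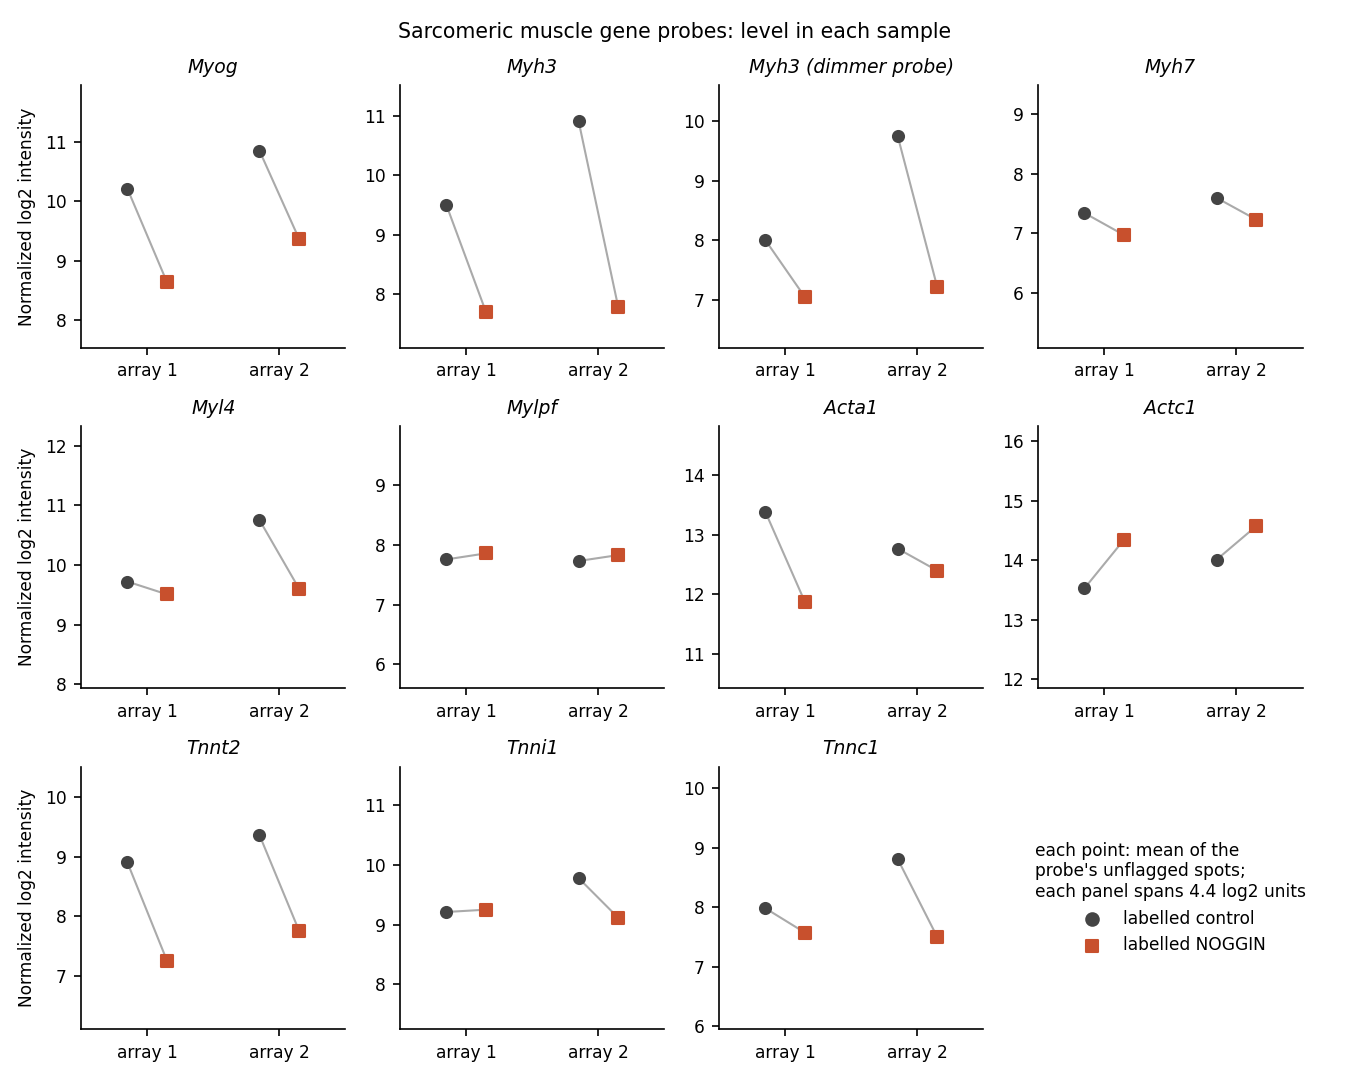
Normalized log2 intensity of each kept probe of the 10 sarcomeric muscle genes in the 4 samples, one panel per probe. Circles are samples labelled control, squares are samples labelled NOGGIN, a line joins the 2 samples of one array, and every panel spans the same number of log2 units. The square lies below the circle on both arrays for Myog, both Myh3 probes, Myh7, Myl4, Acta1, Tnnt2 and Tnnc1, and above it for Actc1 and Mylpf.

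Myog, the regulator of the set, was read by a probe on the plus strand of chromosome 1 (chr1:136188874-136188933, mm9). Its level was 8.64 and 9.36 in the samples labelled NOGGIN on arrays 1 and 2, and 10.21 and 10.84 in the samples labelled control. Both control samples lay above both NOGGIN samples, and the levels of the 2 conditions did not overlap. The log2 ratio was -1.57 on array 1 and -1.48 on array 2, a mean of -1.53 ± 0.06 (SD, n = 2), or 2.88-fold. The spots of the probe spread by 0.35 (SD, 4 spots) on array 1 and by 0.16 (3 spots, 1 left out as an outlier) on array 2, more than the arrays differed. The authors' deposited table gives the probe signed fold changes of 3.28 and 3.14.

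The other members of the MyoD family gave little to set beside Myog. Myf5, which marks muscle precursors, was not well above background in any of the 4 samples. Myf6, which encodes MRF4, was well above background in 1 of 2 samples of each condition, in both cases the one carrying the green dye. Its ratios were 0.05 and 0.13. Myod1, which encodes MyoD, had a level of 10.38 in the NOGGIN sample and 11.66 in the control sample of array 1, a ratio of -1.27. All 4 Myod1 spots on array 2 were flagged by the scanner software as non-uniform outliers and were left out, so the gene is not among those measured on both arrays. With the flagged spots kept, the Myod1 ratio on array 2 was 1.49, the opposite sign to array 1. No value for Myod1 over both arrays is drawn from this.

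Myh3, the embryonic isoform of the myosin heavy chain and the motor of the thick filament in newly formed skeletal fibres, had the largest ratio of the set. Its brighter probe (chr11:66915724-66915783, mm9, plus strand) read 7.70 and 7.79 in the samples labelled NOGGIN and 9.50 and 10.91 in the samples labelled control. The NOGGIN samples were nearly equal, whereas the control samples were 1.41 log2 units apart, and both control samples were above both NOGGIN samples. The ratio was -1.80 on array 1 and -3.12 on array 2, a mean of -2.46 ± 0.94 (SD, n = 2), or 5.50-fold. A second, dimmer probe lies upstream in the same transcript (chr11:66915107-66915166, mm9). It read 7.04 and 7.22 in the NOGGIN samples and 8.00 and 9.76 in the control samples, with ratios of -0.96 and -2.54. Both probes gave the same direction on both arrays, and for both the larger difference was on array 2. The authors' deposited table gives signed fold changes of 4.62 and 13.0 for the brighter probe, and 3.84 and 9.47 for the dimmer one. The sequence of the dimmer probe is shown because it is a second reading of the gene with the largest ratio.
Myh3 probe: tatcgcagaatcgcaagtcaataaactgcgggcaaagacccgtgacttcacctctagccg

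Myh7, the slow skeletal and ventricular myosin heavy chain, differed far less. It read 6.97 and 7.23 in the NOGGIN samples and 7.34 and 7.60 in the control samples (probe at chr14:55589581-55589640, mm9, minus strand). The levels did not overlap, and the ratio was -0.37 on each array, below the fold rule. The authors' deposited table gives Myh7 signed fold changes of 1.47 and 1.82. Neither Myh7 nor the other myosin heavy chains repeated the size seen for Myh3. Of those 7 other heavy chain genes, Myh6, Myh7b and Myh8 were measured, with mean ratios from -0.25 to 0.01, and 0 passed the fold rule. Signals of Myh7 and of these 3 genes were dim, which limits the size of their ratios. On the processed signals of the scanner software the mean ratio was -0.715 for Myh7 and -3.035 for Myh3. The adult fast isoforms were mostly undetected: Myh2, Myh4 and Myh13 were not well above background in any sample, and Myh1 was so in 1 control sample. The probe used for Myh8, the perinatal isoform, gave -0.15 and 0.11, and a dimmer kept probe of that gene gave -0.36 and -0.96.

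Among the light chains, which clasp the neck of the myosin head, Myl4, the atrial and embryonic essential light chain, split between the arrays. It read 9.51 and 9.60 in the NOGGIN samples and 9.72 and 10.76 in the control samples (chr11:104448441-104448500, mm9, plus strand). The conditions did not overlap, but the gap was 0.21 on array 1 and 1.16 on array 2, a mean ratio of -0.69 ± 0.66 (SD, n = 2). Signed fold changes of Myl4 in the authors' deposited table are 1.28 and 2.46. Mylpf, the fast skeletal regulatory light chain, read 7.86 and 7.83 in the NOGGIN samples and 7.76 and 7.73 in the control samples (chr7:134352835-134352894, mm9, plus strand). Its ratio was 0.10 on each array, within the spread of its 4 spots on array 1 (SD 0.13). On array 2 the spread was smaller than the ratio (SD 0.07, 3 spots, 1 left out as an outlier). This Mylpf probe is assigned to a predicted transcript record of the gene. The other Mylpf probe (chr7:134355191-134355250, mm9), assigned to the curated transcript, was not well above background in either NOGGIN sample. It was so in 1 of 2 control samples, the one carrying the green dye. Its ratios were -0.10 and -0.29, and it was left out by the filter. The 2 probes thus disagree in sign at small sizes, and in the authors' deposited table the kept probe itself has -1.29 on array 1 and 1.05 on array 2. Of 4 other light chain genes, all measured, 0 passed the fold rule. Myl1, the fast skeletal essential light chain, had 0.00 and -1.19, Myl2 had 0.07 and 0.08, Myl3 had 0.20 and -0.35 and Myl7 had -0.17 and -0.47.

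The 2 sarcomeric actins went opposite ways. Acta1, the skeletal alpha-actin of adult thin filaments, read 11.86 and 12.40 in the samples labelled NOGGIN and 13.38 and 12.77 in the samples labelled control (chr8:126416197-126416256, mm9, minus strand). Levels did not overlap, although the gap between the lower control and the higher NOGGIN sample was small. The ratio was -1.52 on array 1 and -0.37 on array 2, a mean of -0.94 ± 0.81 (SD, n = 2). Actc1, the cardiac alpha-actin that embryonic skeletal muscle also makes, read 14.35 and 14.57 in the NOGGIN samples and 13.53 and 14.01 in the control samples (chr2:113873064-113873123, mm9, minus strand). Both NOGGIN samples lay above both control samples. Its ratio was 0.82 on array 1 and 0.56 on array 2, a mean of 0.69 ± 0.18 (SD, n = 2), just short of 1.5-fold on array 2. In the authors' deposited table the signed fold changes are 2.61 and 1.38 for Acta1 and -1.54 and -1.66 for Actc1, again of opposite sign.
Actin genes are close relatives in sequence, and whether the Acta1 probe also read RNA of other actins was not tested. Acta2, the smooth muscle alpha-actin, had a similar pair of ratios, -1.39 and -0.18. The sequence of the Acta1 probe is shown because of that kinship.
Acta1 probe: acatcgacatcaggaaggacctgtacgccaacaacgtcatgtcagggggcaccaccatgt

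The 3 troponin subunits of the set, 1 of each kind, ranged from no consistent direction to 3.09-fold. Tnnt2, the cardiac and embryonic troponin T that anchors the complex to tropomyosin, read 7.26 and 7.76 in the samples labelled NOGGIN and 8.91 and 9.36 in the samples labelled control. Both controls were above both NOGGIN samples by more than 1 log2 unit. The ratios were -1.65 and -1.61, a mean of -1.63 ± 0.03 (SD, n = 2), the closest match between the arrays among the 3 genes past the fold rule. The authors' deposited table gives 4.65 and 4.73. On the processed signals of the scanner software the mean ratio of Tnnt2 was -2.21. Tnnc1, the slow and cardiac troponin C that binds calcium, read 7.57 and 7.50 in the NOGGIN samples and 7.98 and 8.81 in the control samples. Levels did not overlap, and the ratio was -0.41 on array 1 and -1.31 on array 2. Tnni1, the slow skeletal inhibitory subunit, read 9.25 and 9.12 in the NOGGIN samples and 9.21 and 9.78 in the control samples. It was the 1 gene of the 10 whose levels overlapped, with ratios of 0.04 and -0.67. For Tnnc1 and Tnni1 the authors' deposited table gives 1.59 and 3.71, and 1.03 and 1.65. Each of these 3 probes covers more genomic bases than its own 60, so each spans an intron and reads joined exons: Tnnt2 at chr1:137747976-137748288, Tnni1 at chr1:137705328-137706203 and Tnnc1 at chr14:32023360-32023776, all mm9 and plus strand. Their sequences are shown because a probe across a splice junction reads processed transcript.
Tnnt2 probe: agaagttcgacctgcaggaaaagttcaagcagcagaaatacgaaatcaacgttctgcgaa
Tnni1 probe: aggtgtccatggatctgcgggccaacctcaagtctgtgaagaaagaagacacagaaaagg
Tnnc1 probe: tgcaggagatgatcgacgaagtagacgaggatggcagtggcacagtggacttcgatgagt

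The 5 other troponin genes were all measured and 0 passed the fold rule, while 4 were lower on both arrays (23.3% of all features were). Tnnc2 and Tnni2, the fast skeletal troponin C and I, had -0.55 and -1.11, and -0.50 and -0.84. Tnnt1, the slow skeletal troponin T, had -0.24 and -0.33, Tnnt3, the fast one, had -0.02 and -0.03, and Tnni3, the cardiac troponin I, had 0.37 and 0.13. The fast Tnnc2 and Tnni2 each missed the rule on array 1.

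**Figure D2:**
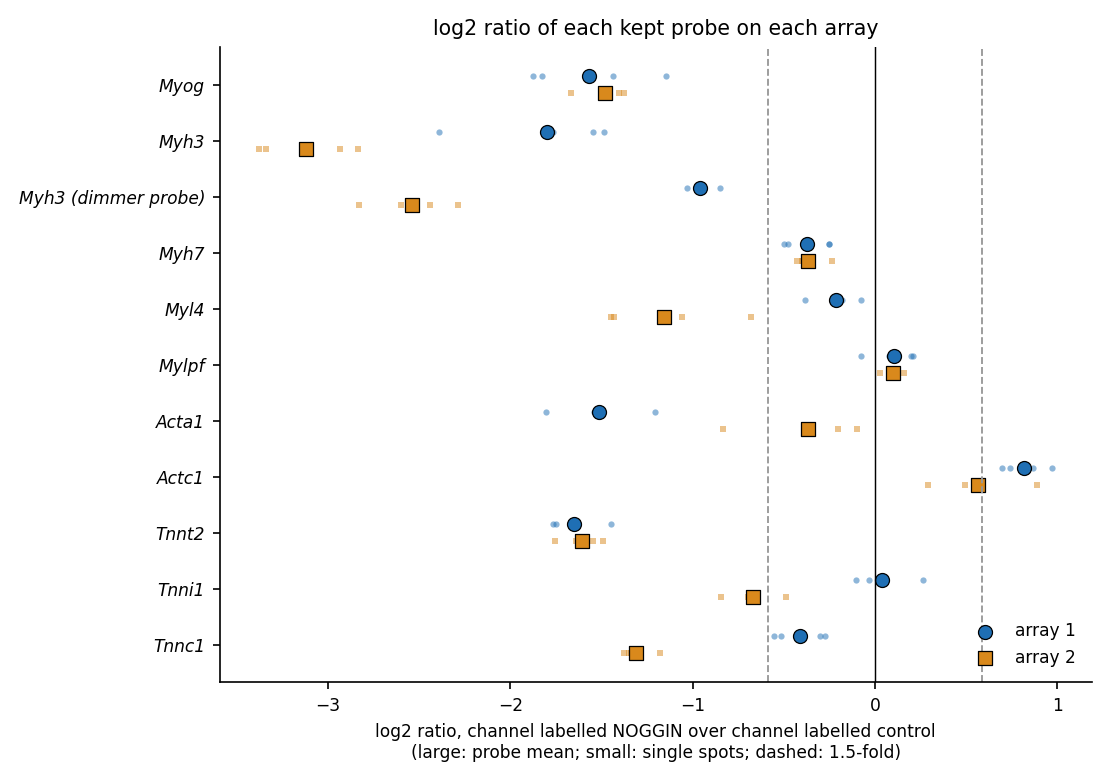
Log2 ratio of each kept probe of the 10 genes, with control as the denominator, on array 1 (circles) and array 2 (squares). Large symbols are probe means over spots, small ones are single spots, and dashed lines mark 1.5-fold. Myog and Tnnt2 have nearly equal ratios on both arrays (-1.57 and -1.48, -1.65 and -1.61), whereas the Myh3, Myl4, Tnni1 and Tnnc1 symbols lie further left on array 2 and the Acta1 symbol on array 1.

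The levels of the 2 conditions separated without overlap in 9 of the 10 genes, 7 with NOGGIN below control (17.9% of all features) and 2 with NOGGIN above (14.4%). For Myh3, Myl4, Tnnc1 and Tnni1, whose ratios were further from 0 on array 2, the control samples differed more between the arrays than the NOGGIN samples did. From array 1 to array 2 the level in the control samples differed by 1.41 for Myh3, 1.03 for Myl4, 0.83 for Tnnc1 and 0.57 for Tnni1, each higher on array 2. Over the same 4 genes the NOGGIN samples differed by 0.09, 0.09, -0.07 and -0.14. For Myog both conditions were higher on array 2 by similar amounts, 0.64 in the control samples and 0.73 in the NOGGIN samples, and for Tnnt2 by 0.46 and 0.50. Acta1 had a control level lower by 0.61 and a NOGGIN level higher by 0.53 on array 2. The control sample carried the red dye on array 1 and the green dye on array 2, and in each condition the green channel had more probes well above background (76.4% against 65.3% of probes in control, 76.9% against 66.4% in NOGGIN). The part of dye and sample in these differences was not tested.

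Among genes of the sarcomere outside the set, few passed the fold rule and all that did were lower. Of 52 listed genes, 39 were measured, and 2 of these were lower by the rule (1.25% of all features), 0 were higher (0.941%) and 37 were neither. The list's median was -0.26, beside -0.01 over all features. Irrespective of size, 23 were lower on both arrays (23.3% of all features) and 4 were higher (20.4%). The 2 genes past the rule were both myosin-binding proteins. Mybpc1, the slow skeletal myosin-binding protein C, read 7.17 and 7.16 in the NOGGIN samples and 8.03 and 8.22 in the control samples, with ratios of -0.86 and -1.06 and no overlap (limma adjusted p = 0.183). It passed 0.05 with the trend and robust options (limma adjusted p = 0.0480). A second, dimmer probe of Mybpc1, left out by the filter, had -0.54 and -0.59, short of 1.5-fold on array 1. Mybph, myosin-binding protein H, read 6.27 and 6.53 in the NOGGIN samples, neither well above background, and 6.90 and 8.26 in the control samples. Its measured ratios were -0.63 and -1.73 (limma adjusted p = 0.364). As a mean over both arrays, the estimated bound was 2.13-fold higher in the samples labelled control, and the difference on array 1 was smaller. For the bound, the NOGGIN level was the lowest signal of any probe well above background, or the probe's own where higher, on each array. Mybph passed the filter through the control samples only. Of 3 tropomyosins, which lie along the thin filament, 0 passed. Their brightest probes had -0.94 and 0.19 for Tpm1, -0.36 and -0.52 for Tpm2 and -0.14 and 0.12 for Tpm3. The other kept Tpm1 probes had -0.54 and -0.52, -0.31 and -0.35, -0.38 and 0.27, and -0.31 and 0.08. Of 29 genes of the Z-disc, the M-line and sarcomere assembly, 22 were measured. Among these, 13 were lower on both arrays (23.3% of all features were) and 0 passed. Their means ran from -0.65 for Actn2 to 0.67 for Actn3, the 2 sarcomeric alpha-actinins. Actn2 was dim, well above background in 1 of 2 samples of each condition, the ones carrying the green dye. A second Actn2 probe, left out by the filter, had 0.00 and -0.17. Counted on 1 array, 4 of the 39 were at least 1.5-fold lower on array 1 (2.11% of all features) and 11 on array 2 (5.64%).

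Skeletal muscle regulators and fibre genes showed 1 gene past the rule. Of 32 listed, 26 were measured, 1 was lower (1.25% of all features), 0 were higher (0.941%) and 25 were neither, with a median of -0.22. Single arrays counted 2 of the 26 at least 1.5-fold lower on array 1 (2.11% of all features) and 7 on array 2 (5.64%). The gene past the rule was Chrna1, the alpha subunit of the muscle acetylcholine receptor. It read 6.49 and 6.76 in the NOGGIN samples and 7.64 and 8.62 in the control samples, without overlap. Chrna1 was well above background in 1 of 2 NOGGIN samples, the one carrying the green dye. Its ratios were -1.15 and -1.86 (limma adjusted p = 0.140, and 0.0154 with the trend and robust options). A second, dimmer probe of Chrna1, left out by the filter, had -0.17 and -0.71. Among the other receptor subunits, Chrnb1 had -0.92 and -0.17, Chrng had -0.05 and -0.11, and Chrnd was left out by the filter. Pax7, which marks muscle stem cells, and Ckm, the creatine kinase of mature fibres, were not well above background in any sample.

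Heart muscle markers gave 3 genes past the rule, all lower (1.25% of all features), among 20 measured of 24 listed. The other 17 were neither, and the median was -0.07. Myh6, Myl2, Myl3, Myl7 and Tnni3 are also in the sarcomere list. Casq2, the cardiac calsequestrin that stores calcium in the sarcoplasmic reticulum, read 7.46 and 7.63 in the NOGGIN samples and 8.80 and 8.80 in the control samples. Both conditions were nearly constant across the arrays, with ratios of -1.33 and -1.17 (limma adjusted p = 0.120, and 0.0341 with the trend and robust options). Sln, which encodes sarcolipin, an inhibitor of the calcium pump, had -0.59 and -1.34 (limma adjusted p = 0.335). Nppb, which encodes a natriuretic peptide, had -0.75 and -1.03 (limma adjusted p = 0.218, and 0.0308 with those options). Sln and Nppb were each well above background in 1 of 2 NOGGIN samples, the one carrying the green dye. The size of their ratios is therefore limited by dim signal. Nkx2-5, the defining transcription factor of heart muscle, had 0.04 and -0.14. It was well above background in 1 of 2 samples of each condition, again the ones carrying the green dye. With both channels required to be above background, 1 of these heart muscle markers passed the fold rule, and so did 1 of the sarcomere list and 0 of the skeletal muscle list.

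Smooth muscle genes, the contractile genes of the ureter itself, were all measured. Of 22, 5 were lower (1.25% of all features), 1 was higher (0.941%) and 16 were neither. The median was -0.48 (-0.55 on array 1, -0.37 on array 2). Single arrays counted 10 genes at least 1.5-fold lower on array 1 (2.11% of all features) and 6 on array 2 (5.64%). Des, Tpm1 and Tpm2 are also in the sarcomere list. Synpo2, an actin-binding protein of the contractile apparatus, had -1.62 and -0.90 on its brightest probe (limma adjusted p = 0.194), while its other kept probes had -0.42 and 0.44, and -0.09 and -0.15. Tagln, which encodes transgelin, had -1.14 and -0.81 (0.194 by limma after adjustment), and Cnn1, calponin, had -0.92 and -0.69 (0.264). Acta2 had -1.39 and -0.18, and Myh11, the smooth muscle myosin heavy chain, had -0.74 and -0.41. Myocd, the coactivator of serum response factor that drives smooth muscle genes, lay on the other side. It read 8.97 and 8.67 in the NOGGIN samples and 7.80 and 7.73 in the control samples, with ratios of 1.17 and 0.94 (limma adjusted p = 0.160). The median of the smooth muscle list was further below 0 on array 1 and that of the 10 sarcomeric genes on array 2, a difference that was not tested.

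**Figure D3:**
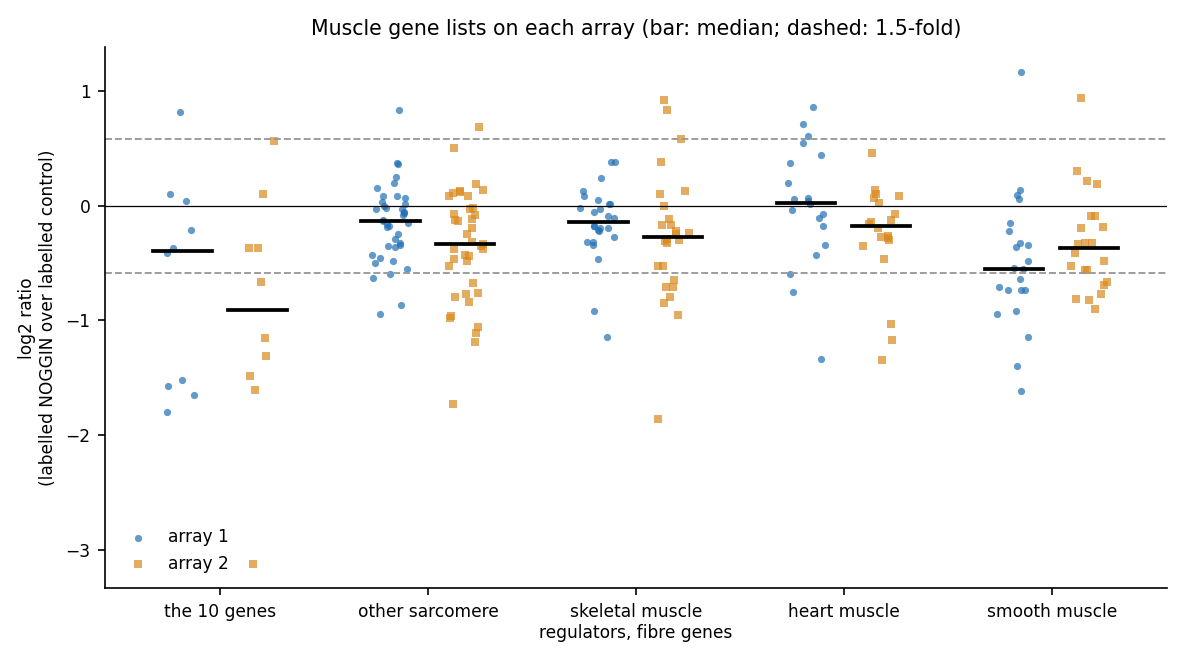
Log2 ratio of each measured gene on array 1 (circles) and array 2 (squares) for the 10 genes and for 4 muscle gene lists, with the median as a bar and 1.5-fold as dashed lines. The medians of the 10 genes are -0.39 and -0.91, those of the other sarcomere genes -0.14 and -0.33, those of the skeletal muscle list -0.14 and -0.27, those of the heart muscle list 0.03 and -0.17 and those of smooth muscle -0.55 and -0.37.

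Markers of the tissue and of other cells in it were checked beside these values. All 8 markers of ureteric mesenchyme and all 12 of urothelium were measured, with mean levels of 14.1 to 14.3 and 11.3 to 11.5 over the 4 samples. By the fold rule 1 of the 8 was lower and 2 were higher, and 1 of the 12 was lower and 1 higher. Over all features the rule gave 1.25% lower and 0.941% higher. Of 9 macrophage, 8 endothelial, 10 nerve and glial and 6 red cell markers measured, 0 passed in either direction, with list medians of -0.17, 0.19, 0.10 and 0.04. Skeletal muscle markers were not all present: of Myod1, Myf5, Myf6, Pax7, Ckm and Myog, the probes for Myf5, Pax7 and Ckm were not well above background in any sample. The mean level over the 26 measured skeletal muscle genes was 8.55 and 8.53 in the NOGGIN samples and 8.70 and 8.80 in the control samples. Over the 10 sarcomeric genes it was 9.10 and 9.32 against 9.75 and 10.26. Whether skeletal muscle cells or tissue beside the ureter were present in differing amounts was not tested.

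**Figure D4:**
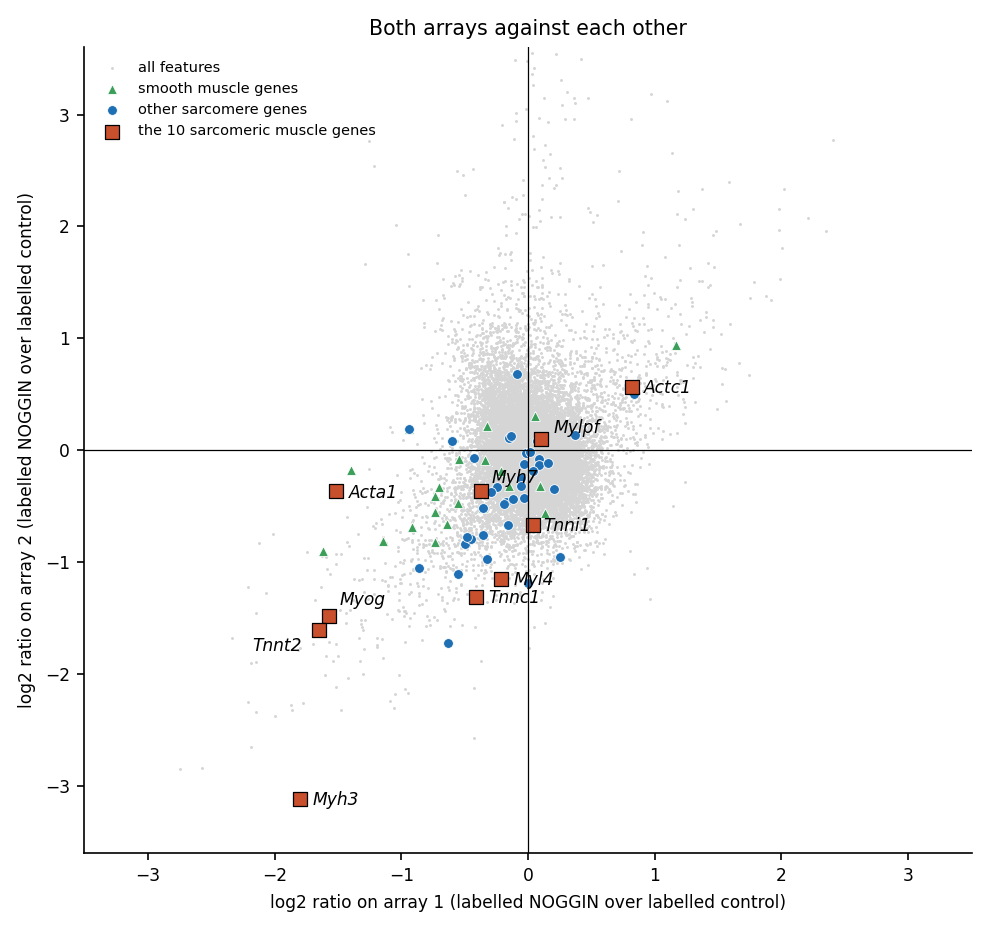
Log2 ratio on array 1 (horizontal) against array 2 (vertical) for all features (grey dots), smooth muscle genes (triangles), other sarcomere genes (circles) and the 10 genes (labelled squares). Features beyond the axes, 8 in number, are not drawn. Myh3, Tnnt2 and Myog lie in the lower left, past 1.5-fold on both arrays, Actc1 lies in the upper right, and Myl4, Tnnc1 and Tnni1 lie below the horizontal line near the vertical one.

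Genes outside the lists with the most similar pair of ratios were found by the Euclidean distance between the pairs of log2 ratios on the 2 arrays, which share these libraries with the genes they are set against. Nearest to Myog was Meox1, a homeobox gene of somites, at a distance of 0.04 (ratios of -1.53 and -1.48), followed by Ptger3 and Sfrp4 at 0.10 and 0.14. Nearest to Tnnt2 were Slc16a5, Runx1t1 and Meox1, at 0.13, 0.18 and 0.18. Among the genes searched, Myh3 had no such close neighbour: Fgf18, a fibroblast growth factor, lay at 0.61 (-2.19 and -2.66), Cdh3 at 0.77 and Bmp2 at 0.80. Only genes matched to a RefSeq record were searched, without names ending in Rik or beginning with Gm or LOC. Features outside that search may lie closer. With 2 values a gene, closeness describes size and direction only.

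Promoters of the genes past the rule and of the 2 actins of opposite sign are shown with the motifs of muscle transcription factors found in them. The windows are the 250 bases before the RefSeq start of transcription (GRCm38.p6), and all 10 genes matched, with 13 windows because some have several starts. Capitals mark matches on either strand to the E-box CANNTG, bound by the MyoD family, to the MEF2-type motif CTANNNNTA, to the M-CAT motif CATTCCT, bound by TEAD factors, and to the CArG box, bound by serum response factor. No 2 matches overlapped in these windows. The first line is on the plus strand at chr1:134289754-134290003, the second at chr1:135836084-135836333 and the third at chr11:67078050-67078299, and the actins are on the minus strand at chr8:123894776-123895025 and chr2:114052876-114053125.
Myog promoter: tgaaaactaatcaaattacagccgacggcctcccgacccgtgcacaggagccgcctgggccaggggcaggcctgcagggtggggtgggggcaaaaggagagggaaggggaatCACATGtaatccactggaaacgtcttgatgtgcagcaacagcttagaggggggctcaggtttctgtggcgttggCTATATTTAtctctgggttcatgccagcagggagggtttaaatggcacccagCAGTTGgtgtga
Tnnt2 promoter: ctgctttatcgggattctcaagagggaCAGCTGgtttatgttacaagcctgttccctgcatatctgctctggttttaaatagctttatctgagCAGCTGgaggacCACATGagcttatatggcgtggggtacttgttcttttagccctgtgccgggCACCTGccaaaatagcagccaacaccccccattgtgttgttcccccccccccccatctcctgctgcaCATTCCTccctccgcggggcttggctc
Myh3 promoter: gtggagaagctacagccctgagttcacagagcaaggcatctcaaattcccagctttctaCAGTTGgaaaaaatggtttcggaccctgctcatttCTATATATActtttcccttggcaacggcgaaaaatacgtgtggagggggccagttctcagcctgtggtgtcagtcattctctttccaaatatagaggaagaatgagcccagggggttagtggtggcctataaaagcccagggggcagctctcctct
Acta1 promoter: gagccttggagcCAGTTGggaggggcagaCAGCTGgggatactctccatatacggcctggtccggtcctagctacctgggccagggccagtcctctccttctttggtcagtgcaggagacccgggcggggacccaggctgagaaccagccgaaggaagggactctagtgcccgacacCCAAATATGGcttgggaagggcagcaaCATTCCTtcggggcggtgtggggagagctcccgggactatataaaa
Actc1 promoter: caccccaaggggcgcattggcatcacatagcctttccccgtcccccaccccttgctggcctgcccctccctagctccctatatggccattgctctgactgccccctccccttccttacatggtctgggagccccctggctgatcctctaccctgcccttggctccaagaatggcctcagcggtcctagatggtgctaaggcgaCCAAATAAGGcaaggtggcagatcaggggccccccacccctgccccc
Myog had E-boxes starting 138 and 12 bases before the start and a MEF2-type match 64 bases before it. Tnnt2 had 4 E-boxes in the window shown, and an M-CAT match 27 bases before the start. The window at another start of Tnnt2, not shown, had an E-box at 156 and MEF2-type matches at 212 and 71 bases. Myh3 had an E-box at 191 and a MEF2-type match at 156 bases. Both actins had a CArG box, at 73 bases for Acta1 and 47 for Actc1, although their ratios had opposite signs. Acta1 also had an M-CAT match at 46 bases. An E-box was found in 11 of the 13 windows, covering 8 of the 10 genes, and in 66.2% of all 32851 promoter windows of this length. A CArG box was in 2 of the 13 windows (1.47% of all windows), a MEF2-type match in 5 (19%), from 4 genes, and an M-CAT match in 2 (4.51%). These are matches of letters and do not show that a factor bound there.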

How the data were processed

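The 2 arrays shared 1 slide and 1 scan, per the file headers. Spot intensity values were deposited as scanner output of Agilent Feature Extraction (10.7.3.1 in the submitters' processing notes) for a custom design, with probe positions in mm9, per the file headers. A deposited red-to-green log10 ratio was set aside. The authors' deposited table has a signed score per probe, found here to be a linear fold change with medians of 1 and no value between -1 and 1. Its log2 correlated at -0.891 and -0.943 with NOGGIN over control by the dye labels, across 39429 probes, so it runs the other way, and how it was normalized is not stated.

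Mean signals were corrected by normexp (offset 50), and limma 3.58.1 in R 4.3.3 applied loess within each array, fitted without control spots. Levels per channel were taken after Aquantile normalization between arrays. Control and outlier-flagged spots (3.36% and 3.09%) were dropped, 0 spots were saturated, and the remaining spots of a probe (4 before that step) were averaged. Kept probes had over 50% of spots well above background in 1 channel or both on each array, and a gene's brightest probe stood for it. Names were updated through RefSeq accessions (28328 probes, 71.8%). lmFit and eBayes fitted 1 coefficient (1 residual and 4.34 prior degrees of freedom), two-sided, with Benjamini-Hochberg adjustment over all features. The fit was tested on simulated ratios. The number of arrays limits the precision. Figures were drawn with matplotlib 3.10.9.

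The genes and lists were chosen with earlier results of these data known. The sarcomere list shares genes with the heart and smooth muscle lists, so their counts and medians are not independent. Named genes are the 10, up to 4 per muscle list past the fold rule with the largest mean ratio, Myod1, Myf5, Myf6, Myocd, Acta2, Myh11, Nkx2-5 and Id1, and the 3 genes nearest in ratios to Myh3, Tnnt2 and Myog. Other genes named are whole families, markers or ends of a range, chosen after their values were seen. Promoters are from RefSeq (GRCm38.p6), and mm9 exon annotation was not used here. Alternatives covered background correction, normalization, filter, flagged spots, spot summary, probe choice, variance model, fold threshold, the authors' values and each array alone.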

Additional observations from a re-analysis of the deposited data

How the results depend on the processing

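Over 12 alternatives each, 9 of the 10 genes kept their sign, and Tnni1 turned once, on array 1 alone (0.04). Some of these outcomes were fixed in advance. Each array alone must keep the sign of a gene with the same sign on both arrays. Dropping or tightening the filter left the ratios of the 10 genes as they were, and averaging over kept probes changed Myh3 only (-2.105). The count of kept signs is therefore a description. Myh3 ran from -3.12 to -1.80, Tnnt2 from -2.23 to -1.61, Myog from -1.68 to -1.48, Myh7 from -0.72 to -0.37, Acta1 from -1.52 to -0.37 and Actc1 from 0.56 to 0.82. With each array alone the median of the 10 genes was -0.39 or -0.91 (-0.77 over both), and 4 or 6 of them were at least 1.5-fold lower (3 over both). Single arrays have no test. The count of features past an adjusted p of 0.05 in limma was 0 as fitted, 141 with trend and robust options, 35 without background correction, 114 with median centring and 97 with both channels above background; among genes of the muscle lists it was 0, against 4 with trend and robust options and 1 under each of median centring and both channels above background. Of the sarcomere list, 2 genes were lower as fitted, 4 without background correction, 4 with an offset of 10, 9 on processed signals, 1 with both channels above background, 0 at 2-fold and 4 to 11 on single arrays, where 1 was higher. Of the skeletal muscle list, 1 was lower as fitted, 3 on processed signals, 0 with both channels above background and 2 to 7 on single arrays, where up to 2 were higher (0 on array 1). Of the heart list, 3 were lower as fitted, 1 with both channels above background and 1 at 2-fold, and 1 was higher on processed signals, 1 on the authors' values and 0 to 3 on single arrays. Of smooth muscle, 5 were lower as fitted, 0 at 2-fold and 6 to 10 on single arrays, and 1 was higher as fitted and 0 at 2-fold. A stricter filter and a 2-fold rule admit fewer genes by construction; for the other settings the cause was not tested. Dim probes limit Mybph, Chrna1, Sln, Nppb, Actn2, Myh7, Myh6, Myh7b and Myh8. On processed signals the mean ratio was also larger for Tnnt2 (-2.21, against -1.629 as fitted) and Tnnc1 (-1.272, against -0.861). How far dim signal limits these 2 genes was not tested. Each array holds both conditions and gives 1 ratio, so the array pairing is already part of every value. No separate paired analysis was run.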

Other observations

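Some skeletal muscle genes outside the main description, chosen after their values were seen, leaned towards the lower side on both arrays without passing the fold rule. Ryr1, the calcium release channel of skeletal muscle, had -0.31 and -0.65, and Cacna1s, its voltage sensor, had -0.21 and -0.79. Of the 2 myoblast fusion proteins, Mymk had -0.17 and -0.22 and Mymx had -0.02 and -0.71. By contrast, Mef2c, a partner factor of the MyoD family, had 0.02 and 0.92, and Atp2a1, the calcium pump of fast fibres, had -0.03 and 0.83, so both lay near 0 on array 1 and above it on array 2. Des, the muscle intermediate filament shared by smooth and striated muscle, had -0.48 and -0.77.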
